A study of Homo sapiens with 2 samples.

Results

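CXCL12, CXCR4 and ACKR3 are the ligand, the signalling receptor and the atypical receptor of one chemokine axis, and they were described here across the cells of 2 blood-generating heart-forming organoids (BG-HFOs). The members were the rows of the feature list whose symbol is one of these names, which gave 3 of 36601 genes in the matrix of either organoid. CXCL12 is a secreted chemokine that binds heparan sulfate on cell surfaces and matrix. CXCR4 is its G protein-coupled receptor and is known for the homing and retention of blood stem and progenitor cells, for arterial patterning and for the migration of many embryonic cells. ACKR3 binds CXCL12 without coupling to G proteins in the usual way, takes it up and lowers its level around the cell, so that ligand source, receiver and scavenger can be different cells of one tissue.

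BG-HFOs are aggregates of human pluripotent stem cells in Matrigel that form heart muscle, endothelium, mesenchyme and blood. They do so after timed WNT activation by CHIR99021 and inhibition by IWP2. Of endoderm, the study reports only a minor posterior foregut cluster and no detectable anterior foregut. Both organoids, 32.7 and 33.10, came from the embryonic stem cell line hES3 NKX2.5-eGFP, were exposed to the same series of factors, among them BMP4, bFGF, VEGF, SCF, EPO, interleukins, IGF-1, FLT3 ligand and SHH, and were dissociated singly on day 14 for droplet sequencing of messenger RNA. There was 1 condition and 1 cell line, so the comparisons are between cell types of the same organoids. Each organoid was the replicate (n = 2) and cells were not.

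The 3 genes lie on chromosomes 10 and 2 of GRCh38. In GENCODE release 44, CXCL12 (ENSG00000107562) spans chr10:44370165-44386493 on the minus strand with 3 exons in its canonical transcript, CXCR4 (ENSG00000121966) spans chr2:136114349-136119177 on the minus strand with 2 exons, and ACKR3 (ENSG00000144476) spans chr2:236567787-236582354 on the plus strand with 2 exons. The promoter windows of the ligand and of its signalling receptor are shown because the levels of those genes separate source and receiver cells in the results that follow. Each window holds 250 bases before and 50 after a start site in RefSeq (GRCh38.p14), read 5′ to 3′ on the gene's strand, and capitals mark a match on either strand to 1 of 3 motif cores. GTGGGAA is the core bound by the Notch partner RBPJ. AGGTCA is the core bound by nuclear receptors. The core ACGTG is bound by hypoxia-inducible factors. These motifs do not overlap one another in the windows. RefSeq lists 3 windows for CXCR4, of which the first and the third are given, and ACKR3 is named only.
CXCL12, chr10:44385048-44385347, minus strand: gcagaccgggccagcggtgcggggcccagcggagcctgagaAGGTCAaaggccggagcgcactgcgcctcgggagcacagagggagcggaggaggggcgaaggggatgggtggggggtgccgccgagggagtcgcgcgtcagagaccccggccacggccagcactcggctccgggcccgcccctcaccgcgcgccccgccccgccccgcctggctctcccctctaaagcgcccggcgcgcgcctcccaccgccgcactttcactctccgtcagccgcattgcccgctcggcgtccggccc
CXCR4, chr2:136118100-136118399, minus strand: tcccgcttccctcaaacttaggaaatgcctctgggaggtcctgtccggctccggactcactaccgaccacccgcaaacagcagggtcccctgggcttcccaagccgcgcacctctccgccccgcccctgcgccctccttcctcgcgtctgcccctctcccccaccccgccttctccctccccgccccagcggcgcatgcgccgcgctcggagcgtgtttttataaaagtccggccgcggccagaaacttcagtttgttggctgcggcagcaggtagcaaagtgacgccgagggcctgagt
CXCR4, chr2:136116186-136116485, minus strand: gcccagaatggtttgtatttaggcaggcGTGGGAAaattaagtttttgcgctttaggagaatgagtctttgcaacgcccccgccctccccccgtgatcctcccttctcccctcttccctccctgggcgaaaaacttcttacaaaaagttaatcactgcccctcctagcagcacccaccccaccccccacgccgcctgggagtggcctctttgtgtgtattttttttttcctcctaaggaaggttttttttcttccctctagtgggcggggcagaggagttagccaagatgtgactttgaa
The CXCL12 window held 1 AGGTCA, at position -209 from the start site, a motif found in 13.8% of 35116 promoter windows of the same length. The third CXCR4 window held 1 GTGGGAA at position -222, found in 6.25% of windows, and the other windows of CXCR4 held none of the motifs. ACGTG, found in 21.4% of all windows, was in none of the 4 windows of CXCL12 and CXCR4. The 3′ tags that were sequenced do not tell which start site a transcript used.

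Cells were assigned to 20 gates by raw counts of marker transcripts (unique molecular identifiers, UMIs), with none of the 3 genes among the markers. The matrices held 16866 and 19948 barcodes with 191152562 and 233818881 UMIs, and 100 barcodes occurred in both. After the cell filter 16792 and 19893 cells remained, of which 51.4% and 51.6% fell into a gate. Cells positive for 2 or more of 7 lineages (11.9% and 12.9%) were left out of every gate, which was the treatment of doublets. The gates were arterial (AE) and venous (VE) endothelium, other, cycling and RUNX1-positive endothelium, cardiomyocytes (CM), proepicardium or septum transversum (PE/ST), mesenchyme (MES) with high or low LUM or cycling, posterior foregut endoderm (PFE), hematopoietic progenitors (HPC), megakaryocytes (Mk), erythroblasts (Ery), macrophages (Mac), C1Q-negative cells with monocytic markers (Mono), neutrophil precursors (Neu) and eosinophil or basophil precursors (Eos). They were set by rule and are not the clusters of the study. Of the arterial markers 7 of 8 were highest in AE and of the venous markers 5 of 6 in VE, the exceptions being SEMA3G and FLRT2, both highest in PE/ST. All of these markers also set the AE and VE gates, so their place follows in part from the rules and is no independent check. Of the 8 PE/ST markers, ALDH1A2 and TNNT1 were highest in Mac and UPK3B, at 0.567 CPM, in MES LUM-high. Of the mesenchymal markers, POSTN was highest in Mono (22.2 ± 28.1 CPM) and OGN in HPC (16.4 ± 1.26 CPM). The others were highest in MES LUM-high or MES LUM-low. No monocytic marker was highest in Mono, with LYZ, FCN1, S100A8 and S100A9 highest in Neu, and of the 6 progenitor markers only MYB was highest in HPC, with SPN highest in Neu, PTPRC in Mac, CD34 in EC RUNX1, GATA2 in Eos and KCNK17 in Mk, so Mono and HPC are described by their rules only. A level is given in CPM, the UMIs of a gene per 1000000 UMIs of all cells of a gate, and the mean ± SD is over the 2 organoids.

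CXCL12 transcripts lay mostly in mesenchyme, PE/ST and heart muscle, and those of its receptors mostly in endothelium. Gates took in 50.3% and 47.7% of all CXCL12 UMIs, 71.7% and 63.3% of those of CXCR4 and 65.7% and 65.3% of those of ACKR3. Of the CXCL12 UMIs that fell into gates, 70.4% in organoid 32.7 and 71.1% in 33.10 were in PE/ST and mesenchymal cells and 21.4% and 19.9% in cardiomyocytes, against 3.20% and 2.85% in endothelium. Endothelium held 89.8% and 87.0% of the CXCR4 UMIs and 81.0% and 80.7% of the ACKR3 UMIs, and PE/ST and mesenchyme held 14.97% and 13.8% of the ACKR3 UMIs.

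**Figure D1:**
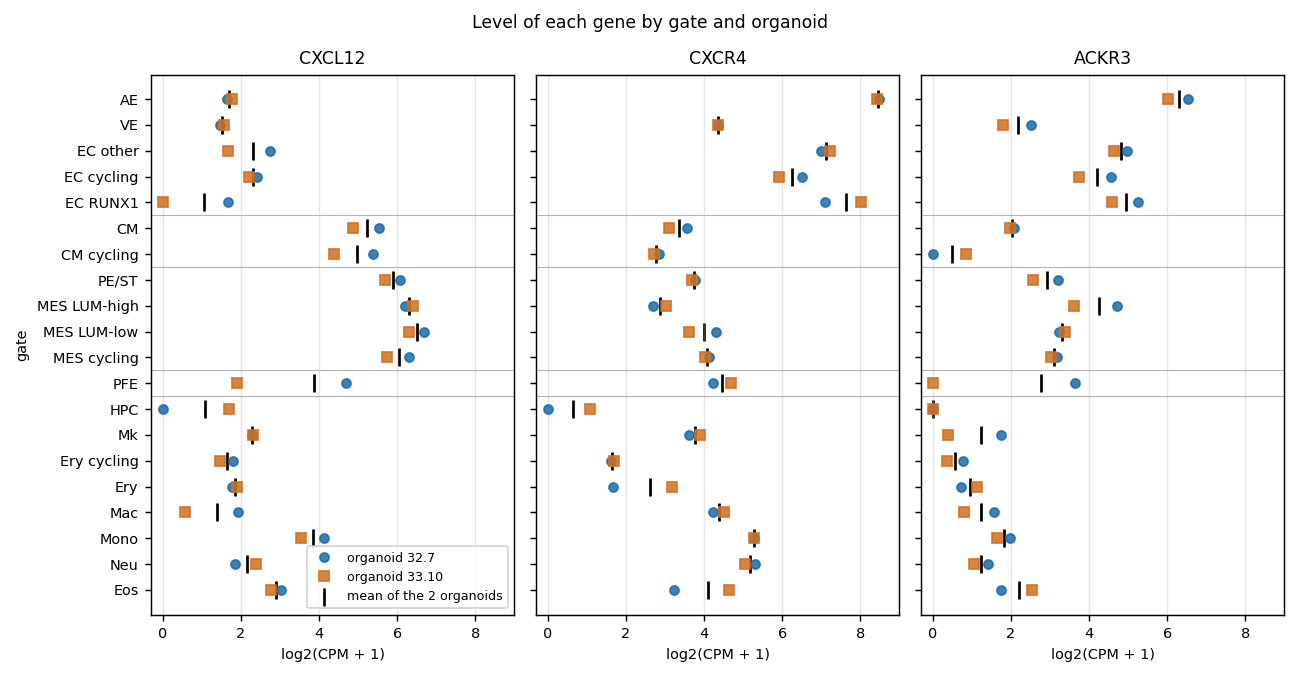
Level of CXCL12, CXCR4 and ACKR3 in each gate, as log2(CPM + 1) on the horizontal axis, with 1 point for each organoid and a bar at their mean. CXCR4 and ACKR3 are highest in AE, at 350 ± 5.10 and 77.6 ± 20.2 CPM, and CXCL12 in MES LUM-low, at 89.9 ± 17.3 CPM.

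The ligand was highest in mesenchyme with little LUM, a proteoglycan of collagen matrix. The level of CXCL12 in MES LUM-low was 102 CPM in organoid 32.7 and 77.6 CPM in 33.10, and in MES LUM-high it was 72.8 and 83.9 CPM. Cycling mesenchyme had 78.3 and 52.9 CPM and PE/ST, the cells that give rise to the epicardium, 66.8 and 50.4 CPM. In the order of the means these 4 gates followed one another, and no gap between neighbours among them exceeded the larger SD. Cardiomyocytes came next with 45.1 and 28.1 CPM (36.6 ± 12.0), a gap to PE/ST larger than both SDs, and the organoid values did not overlap. Below cycling cardiomyocytes, at 40.5 and 20.0 CPM, all other gates had means of 13.8 CPM or less. In AE the level was 2.13 and 2.40 CPM and in VE 1.75 and 1.96 CPM. With a stricter gate (markers at double the UMIs), MES LUM-low fell to a mean of 57.5 CPM and no longer had the highest CXCL12 level. The doubling also applied to LUM and to the markers that exclude a cell, so this gate was stricter on inclusion and looser on exclusion. Of 8 mural markers, PDGFRB (94.3 ± 6.30 CPM), RGS5 (759 ± 11.0 CPM) and CSPG4 (11.3 ± 4.43 CPM) were highest in MES LUM-low. PDGFRB and CSPG4 were close to this in MES LUM-high, at 91.9 ± 15.7 and 9.45 ± 1.84 CPM. The other mural markers were highest elsewhere, KCNJ8 and ABCC9 in cycling cardiomyocytes, NOTCH3 in PFE, and ACTA2 and MYH11 in cardiomyocytes. The part of mural cells in the CXCL12 level was not tested. After each cell was thinned to 2000 UMIs, 13.4% (exact 95% binomial interval 10.0 to 17.4%) and 12.9% (10.1 to 16.1%) of MES LUM-low cells had a UMI of CXCL12, against 8.58% (7.13 to 10.2%) and 4.92% (3.86 to 6.17%) of cardiomyocytes and 0.439% (0.161 to 0.953%) and 0.438% (0.142 to 1.02%) of AE cells.

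Whether mesenchyme and arterial endothelium differ as source and receiver was asked with a fit to the UMIs summed per gate and organoid. CXCL12 was higher in mesenchyme (the mean of LUM-high and LUM-low) than in AE by 5.10 ± 0.33 on the log2 scale (edgeR quasi-likelihood test, Benjamini-Hochberg adjusted p = 3.3e-13), and CXCR4 was lower by 5.31 ± 0.23 (adjusted p = 3.9e-16, edgeR); errors of log2 fold changes are standard errors. ACKR3 was lower in mesenchyme by 2.68 ± 0.31 (edgeR adjusted p = 1.1e-07). All 3 genes were called in this comparison, in which 57.5% of the 19435 genes tested were called, 27.8% higher and 29.8% lower in mesenchyme. These p-values rest on a spread pooled over the 19 gates of the fit, from 2 organoids of one cell line. Gates of the same organoid were treated as independent in it, so small p-values do not measure the spread between organoids in general.

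Within the source cells the differences were small. PE/ST had less CXCL12 than MES LUM-high by 0.50 ± 0.27 on the log2 scale, which did not pass (edgeR adjusted p = 0.35) and passed with the organoid as a block in the fit (difference -0.49, edgeR adjusted p = 0.022). Cardiomyocytes had less than PE/ST by 0.53 ± 0.27, which did not pass (edgeR adjusted p = 0.15). That difference passed with the block (edgeR adjusted p = 0.0033) and with no filter on low counts (edgeR adjusted p = 0.027). In the first comparison 7.6% of genes were called (1478, and 2650 with the block) and in the second 31.9%. PFE was not tested, since organoid 33.10 held 18 such cells, and its CXCL12 level was 24.8 CPM in 32.7 (28 UMIs in 133 cells) and 2.73 CPM in 33.10 (1 UMI).

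CXCR4 was highest in arterial endothelium in both organoids. The study already names CXCR4 among the arterial markers of its AE cluster in these organoids. Its level in AE was 353 CPM in organoid 32.7 and 346 CPM in 33.10, and in VE 19.6 CPM in both. AE and VE did not overlap, and the difference was 4.27 ± 0.29 on the log2 scale (edgeR adjusted p = 5.6e-11), in a comparison that called 17.6% of genes. A UMI of CXCR4 was found in 88.3% and 87.8% of AE cells and in 11.3% and 12.2% of VE cells, at a median depth of 14132 and 12875 UMIs in AE and 12401 and 10825 in VE. After each cell was thinned to 2000 UMIs the shares were 46.2% (exact 95% binomial interval 43.5 to 48.8%) and 45.5% (42.6 to 48.4%) in AE and 2.96% (1.49 to 5.24%) and 2.13% (0.86 to 4.33%) in VE. Cardiomyocytes, taken as a cell type that should have little of the gene, had 2.33% (1.59 to 3.30%) and 1.46% (0.903 to 2.22%) after the same thinning, at unthinned median depths of 6861.5 and 8827.5 UMIs. The intervals of these shares overlap those of VE, while the level without thinning was higher in VE (exact 95% counting intervals 16.0 to 23.8 CPM and 15.5 to 24.4 CPM) than in cardiomyocytes (9.14 to 12.7 CPM and 6.31 to 9.06 CPM). Cycling erythroblasts had 0 of 283 cells in 32.7, which allows a share of up to 1.30% by the same interval, and 0.373% (0.0452 to 1.34%) in 33.10. Intervals cover counting error only.

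Endothelial cells that the rules called neither arterial nor venous (EC other) had CXCR4 levels between those of AE and VE. Their median depth was 7045 and 7172 UMIs, against 14132 and 12875 in AE. As AE cells needed 3 or more arterial markers, shallow arterial cells could fall into EC other, and their part in its level was not tested. The level of CXCR4 was 126 and 149 CPM in this gate (EC other), 89.8 and 60.0 CPM in cycling endothelium and 135 and 257 CPM in RUNX1-positive endothelium. In the order of the CXCR4 means, AE stood above EC RUNX1 by more than the larger SD, EC RUNX1 and EC other did not differ beyond theirs, and EC other, EC cycling and the next gate, Mono, were each separated by more. Of the 19 pairs of neighbours in the whole order, 7 were separated by more than the larger SD and 12 were not.

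CXCR4 rose with the balance of arterial over venous markers in every bin. Non-cycling, RUNX1-negative endothelial cells were placed in 5 bins by the share of arterial UMIs among the UMIs of 8 arterial and 6 venous markers. In organoid 32.7 the CXCR4 level was 4.70, 39.8, 130, 247 and 449 CPM from the most venous to the most arterial bin, and in 33.10 it was 7.49, 38.7, 146, 216 and 432 CPM. ACKR3 rose over the same bins, with 1.73, 9.96, 43.8, 68.0 and 110 CPM in 32.7 and 1.34, 10.0, 33.7, 43.2 and 72.2 CPM in 33.10. CXCL12 stayed between 1.07 and 5.57 CPM in every bin of both organoids. The bins were also made without the 5 markers among these that the study names (GJA4, SOX17, DLL4, NR2F2 and NT5E). CXCR4, which the study names as arterial too, again rose from bin to bin in both organoids. ACKR3 did so in 33.10 and up to the fourth bin of 32.7, where it was 102 CPM against 97.7 CPM in the fifth.

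**Figure D2:**
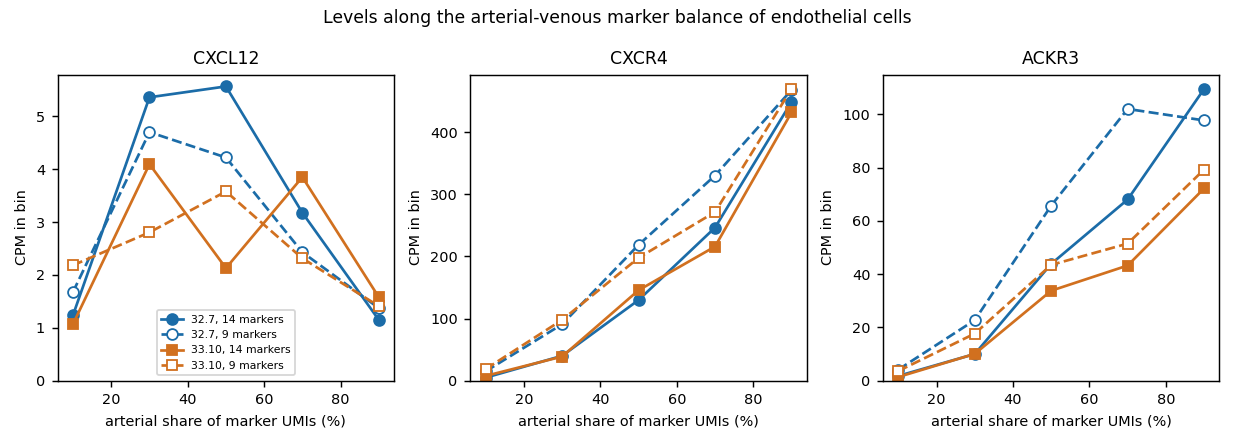
Level of each gene in CPM (vertical axis) in 5 bins of the arterial share of arterial and venous marker UMIs in per cent (horizontal axis), for each organoid, with all 14 markers (solid lines) and without the 5 that the study names (dashed lines). CXCR4 rises to 449 and 432 CPM in the most arterial bin, ACKR3 to 110 and 72.2 CPM, and CXCL12 stays at 5.57 CPM or less.

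ACKR3 had its highest level in the same gate as CXCR4. The level of ACKR3 was 91.9 CPM in AE of organoid 32.7 and 63.3 CPM in 33.10, against 4.66 and 2.45 CPM in VE, and the difference between AE and VE was 4.52 ± 0.48 on the log2 scale (edgeR adjusted p = 2.6e-07). CXCL12 did not pass in this comparison (log2 difference 0.40 ± 0.57, edgeR adjusted p = 0.71). After thinning to 2000 UMIs, 13.5% (exact 95% interval 11.8 to 15.5%) and 10.9% (9.12 to 12.8%) of AE cells had a UMI of ACKR3, against 1.08% and 0.912% of VE cells. Cycling erythroblasts, taken as a cell type that should have little of the gene, had 0.353% and 0.187% (median depths of 24768 and 17039 UMIs), and cardiomyocytes had 0.678% and 1.18%.

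ACKR3 was also found in mesenchyme, and its level was above that of CXCR4 in MES LUM-high only. CXCR4 was at 18.7 and 11.3 CPM in MES LUM-low and at 16.5 and 15.4 CPM in cycling mesenchyme. The level of ACKR3 in MES LUM-high was 25.1 CPM in 32.7 and 11.2 CPM in 33.10. In MES LUM-low it was 8.29 and 9.33 CPM and in cycling mesenchyme 8.07 and 7.19 CPM. PE/ST had 8.16 and 4.95 CPM, less than MES LUM-high by 1.65 ± 0.43 on the log2 scale (edgeR adjusted p = 0.017), a call that DESeq2 did not give (adjusted p = 0.064). CXCR4 in the same comparison was 12.6 and 11.9 CPM in PE/ST and 5.42 and 7.08 CPM in MES LUM-high, a log2 difference of 0.92 ± 0.35 with the opposite sign that did not pass (edgeR adjusted p = 0.12). Cardiomyocytes had 3.19 and 2.90 CPM of ACKR3, with a log2 difference to PE/ST of -0.93 ± 0.48 (edgeR adjusted p = 0.16, and 0.025 with the organoid as a block), and 10.8 and 7.59 CPM of CXCR4 (log2 difference -0.26 ± 0.30, edgeR adjusted p = 0.56). The ACKR3 level was higher in 32.7 than in 33.10 in AE, in MES LUM-high and over all cells, where it was 21.8 against 10.0 CPM.

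**Figure D3:**
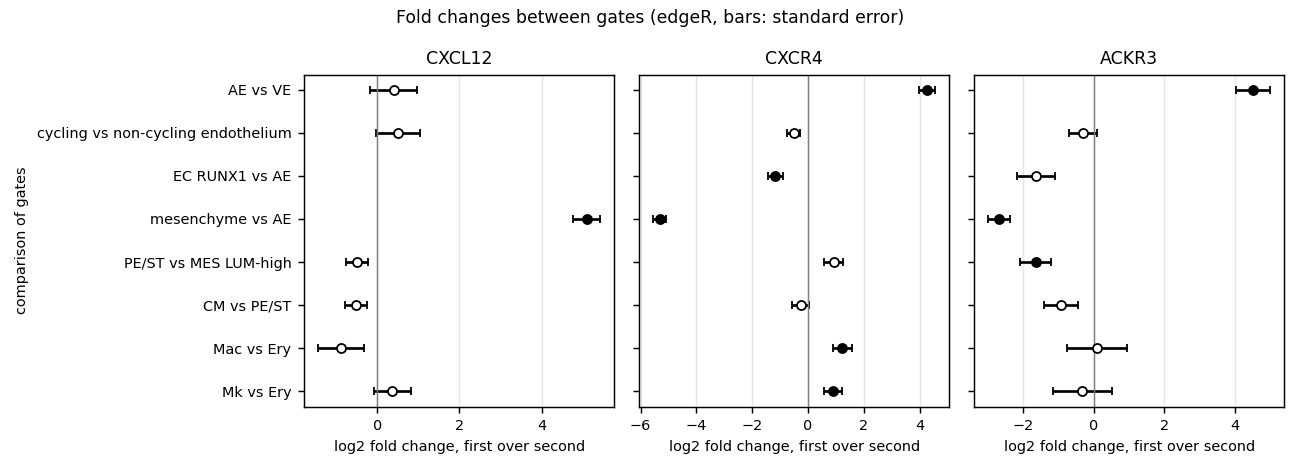
Log2 fold change (horizontal axis, bars are standard errors) of each gene in 8 comparisons of gates, the first named over the second, with filled points where the edgeR adjusted p was under 0.05. CXCR4 and ACKR3 are both higher in AE than in VE, by 4.27 and 4.52, and CXCL12 is higher in mesenchyme than in AE by 5.10.

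CXCR4 and ACKR3 were found together in single AE cells more often than the product of their shares. Some other endothelial gates thinned to 2000 UMIs had this excess too. In EC other both were found in 2.68% of cells of 32.7 and 1.499% of 33.10, against products of 1.26% and 0.905%. In cycling endothelium 2 and 1 cells had both, above the product in each organoid. In 32.7, 3 cells of RUNX1-positive endothelium and 1 of VE had both, again above it. In VE and RUNX1-positive endothelium of 33.10 no thinned cell had both. Only 3 and 0 thinned cells there had ACKR3, too few to show an excess. In AE thinned to 2000 UMIs, both were detected in 7.83% of cells of 32.7 and 7.54% of 33.10, where the product of the single shares is 6.25% and 4.94%. A UMI of ACKR3 was found in 17.0% and 16.6% of AE cells with a UMI of CXCR4 and in 10.6% and 6.11% of those without. Without thinning, the ACKR3 level in AE cells with no UMI of CXCR4 was 28.7 and 13.1 CPM, and in AE cells with 10 or more it was 186 and 120 CPM. The median depth of those groups was 11552 and 11006 UMIs against 16890 and 16517 UMIs, and its part in the difference was not tested. Cells are not replicates here, and the shares are a description of 2 organoids.

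Endothelium with RUNX1, the factor that starts blood formation from endothelium, was compared with AE in 24 and 23 cells. AE cells needed 3 or more arterial markers and cells of this gate needed none. A difference from AE therefore cannot be told apart from that selection. EC other, with no clear arterial or venous call, had 126 and 149 CPM of CXCR4, and VE had 19.6 CPM in both organoids. The CXCR4 level of RUNX1-positive endothelium, 135 and 257 CPM, was below that of AE in both organoids, by 1.17 ± 0.28 on the log2 scale (edgeR adjusted p = 0.035). In this comparison 1.61% of genes were called, 71 higher and 242 lower, and the median gene was lower by 0.31 on the log2 scale. With the size factors of DESeq2 in edgeR the split was 69 higher and 9 lower, the median gene stood at -0.03 and the CXCR4 difference was -0.88 (edgeR adjusted p = 0.28). The call was lost under 4 further alternatives, with DESeq2 itself giving -0.87 and an adjusted p of 0.24. With the organoid as a block 677 genes were called in place of 313. Without organoid 32.7 the CXCR4 difference was -0.73 and without 33.10 it was -1.68. Stromal genes differed in level from AE, with COL1A1 at 540.3% and 314.9% of its AE level, COL1A2 at 526% and 577%, COL6A3 at 1532% and 91.1% and PDGFRB at 9.72 ± 1.62 CPM against 1.39 ± 0.56 CPM, and their part in the difference was not tested. ACKR3, at 36.9 and 22.9 CPM, was below AE by 1.64 ± 0.54, which did not pass (edgeR adjusted p = 0.13) and passed with the organoid as a block (edgeR adjusted p = 0.0086). CXCL12 had 1 UMI in this gate over both organoids.

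Cycling endothelium was compared with the log2 mean of AE, VE and EC other, each gate weighted equally whatever its number of cells. The CXCR4 level was 89.8 and 60.0 CPM in cycling endothelium. It was 353 and 346 CPM in AE, 126 and 149 CPM in EC other and 19.6 CPM in VE of both organoids. The arterial share was not matched, and its part in the difference was not tested. Against this equally weighted mean, CXCR4 was lower in cycling endothelium by 0.51 ± 0.23 (edgeR adjusted p = 0.16). ACKR3 was lower by 0.30 ± 0.40 (edgeR adjusted p = 0.71), in a comparison that called 11.6% of genes. Neither passed.

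Blood cells as receivers were described last. CXCR4 was highest among them in Mono, with 37.9 and 37.8 CPM, and in Neu, with 38.3 and 31.8 CPM. Macrophages had 17.8 and 21.9 CPM, megakaryocytes 11.3 and 13.9 CPM, and erythroblasts 2.18 and 8.03 CPM. Mac were above Ery by 1.23 ± 0.33 on the log2 scale (edgeR adjusted p = 0.0034) and Mk above Ery by 0.90 ± 0.33 (edgeR adjusted p = 0.028), in comparisons that called 45.9% and 40.8% of genes. Both calls were lost with a stricter gate, where the edgeR adjusted p was 0.053 and 0.16. The sizes rest on the low level in erythroblasts of 32.7: without organoid 33.10 the log2 differences were 2.38 and 2.01, and without 32.7 they were 0.94 and 0.60. CXCL12 and ACKR3 passed in neither comparison, with levels of 4.82 CPM or less for ACKR3 in every blood gate.

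HPC, gated on MYB with PTPRC or SPN and with no endothelial marker at 2 or more UMIs, had hardly any UMI of the 3 genes. Progenitors with more endothelial transcripts fell outside this gate, and the level does not describe them. Nor does it describe progenitors already called megakaryocyte, erythroid or myeloid by their markers, since HPC needed no call for any of the 7 lineages. CXCR4 had 0 UMIs in the 20 cells of 32.7, which allows up to 6.38 CPM by the exact 95% counting interval, and 1 UMI in the 51 cells of 33.10. ACKR3 had 0 UMIs in both organoids, and CXCL12 had 0 and 2. Over both organoids the CXCR4 level in HPC was 0.104 times that in Ery (exact 95% counting interval 0.00262 to 0.594), from 1 against 112 UMIs, and 0.0182 times that in Neu (0.000459 to 0.103). Against cycling erythroblasts it was 0.314 times (0.00776 to 1.86), an interval that includes no difference. In organoid 32.7 alone the level in Ery, 2.18 CPM, lies under the limit that 0 UMIs allow in HPC. No fold is given for ACKR3, which was at or under the floor of 3 UMIs. The comparison of HPC with Ery called 25.3% of genes, and the test on CXCR4 passed (edgeR adjusted p = 0.030), but not with the stricter gate (edgeR adjusted p = 0.091), with the organoid as a block (0.075) or with 10% of each sum removed as free RNA (0.42). With the stricter gate, which held 27 and 33 cells, the mean CXCR4 level in HPC was 4.49 CPM. In that gate an endothelial marker excluded a cell only at 4 or more UMIs, and other lineages were counted at the same UMIs. It was therefore looser on exclusion, and the part of this in the level and the lost call was not tested.

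Free RNA was not measured directly, and its part in the levels was not tested. Genes of the endothelium and the mesenchyme that no gate used, chosen after the gates were made, were set beside the 3 genes. Whether the gates express these genes themselves was not tested. Beside CXCR4 and ACKR3 stood ESM1, an endothelial proteoglycan gene, and FLT1, a VEGF receptor gene. In Neu, CXCR4 stood at 10.8% and 9.18% of its AE level, against 1.39% and 0.16% for ESM1 and 2.89% and 2.43% for FLT1. In Mono it stood at 10.7% and 10.9%, against 3.32% and 6.35% for ESM1 and 7.98% and 13.5% for FLT1. In VE the values were 5.55% and 5.66% for CXCR4, 3.52% and 4.71% for ESM1 and 33.6% and 36.2% for FLT1. In erythroblasts CXCR4 stood at 0.62% and 2.32%, against 1.90% and 1.43% for ESM1 and 1.92% and 2.34% for FLT1. ACKR3 in MES LUM-high stood at 27.3% and 17.6% of its AE level, against 0.46% and 0.79% for ESM1 and 4.93% and 6.45% for FLT1.

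The same comparison for the ligand used 3 collagen genes of mesenchyme. CXCL12 in cardiomyocytes stood at 61.9% and 33.5% of its level in MES LUM-high, against 12.6% and 10.3% for COL1A1, 19.7% and 21.2% for COL1A2 and 6.96% and 6.16% for COL6A3. In AE it stood at 2.92% and 2.86%, against 1.69% and 1.48% for COL1A1, 2.48% and 2.19% for COL1A2 and 1.65% and 1.48% for COL6A3. In Mono it stood at 22.4% and 12.5%, against 18.9% and 10.0% for COL1A1, 18.2% and 8.79% for COL1A2 and 18.9% and 6.96% for COL6A3. CXCL12 was above each of the collagen genes in both organoids in these 3 gates, by the largest margin in heart muscle. In Mono it rested on 28 and 5 UMIs, with counting intervals of 10.9 to 23.6 and 3.41 to 24.5 CPM, too wide to order it there. Other gates went the other way. CXCL12 was below COL1A2 in VE (2.40% and 2.33% against 16.1% and 16.4%) and in PE/ST (91.7% and 60.1% against 99.5% and 91.3%). In EC RUNX1, and in PFE and Mac of 33.10, it was below all 3, on 2 UMIs or fewer.

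**Figure D4:**
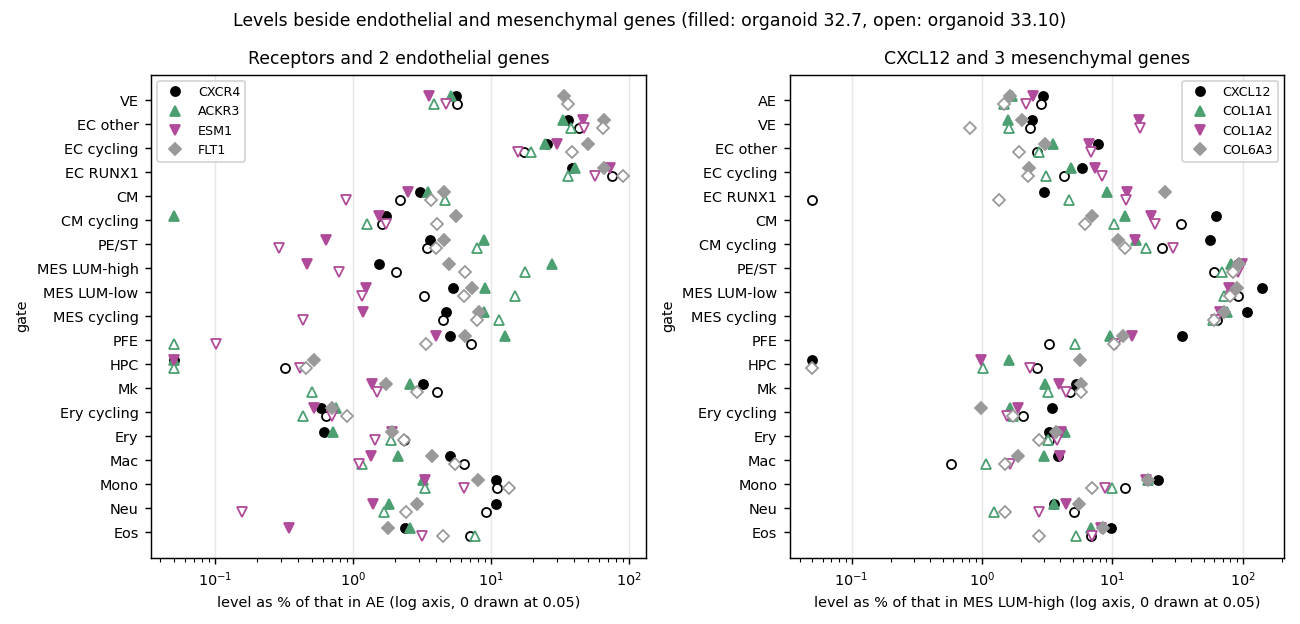
Level in each gate as a percentage of that in AE (left, CXCR4 and ACKR3 beside the endothelial genes ESM1 and FLT1) or in MES LUM-high (right, CXCL12 beside 3 collagen genes), on log axes with filled points for organoid 32.7 and open points for 33.10. CXCR4 in Neu is at 10.8% and 9.18% of AE where ESM1 is at 1.39% and 0.16%, and CXCL12 in CM is at 61.9% and 33.5% of MES LUM-high where COL1A1 is at 12.6% and 10.3%.

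The genes most alike in pattern were sought over 19 gates by Pearson's correlation of log2(CPM + 5), averaged over organoids, among 19317 genes that define no gate. The gates come from the same 2 libraries, and the correlations are descriptions. Nearest to CXCL12 were FGF7, a growth factor gene of mesenchyme (r = 0.96 in 32.7 and 0.97 in 33.10), RERG, a RAS-like gene (0.98 and 0.95), AC096576.3, AC110296.1 and KCNJ3, a potassium channel gene of the heart. Nearest to CXCR4 were EFCAB14 (r = 0.93 in both), NDST1, which sulfates heparan sulfate chains (0.91 in both), LRP10, AC096921.2 and AC104958.1. Nearest to ACKR3 were CHST1, a sulfotransferase gene (r = 0.95 and 0.97), PLPP2, ANGPT2, the TIE2 ligand of remodelling endothelium (0.96 and 0.91), LINC01239 and PTCHD1. CXCR4 and ACKR3 themselves had r = 0.81 in both organoids, CXCL12 and CXCR4 -0.21 and -0.39, and CXCL12 and ACKR3 0.03 in both. With a pseudocount of 1 CPM in place of 5, the nearest 5 shared 2 genes for CXCL12, 3 for CXCR4 and 3 for ACKR3.

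A list of 53 genes of the axis in 8 groups, covering other ligands, atypical receptors, proteases, heparan sulfate carriers, signalling, migration, niche factors and regulators, gave the surroundings of the 3 genes. Between AE and VE, 11 of the 53 were higher and 12 lower in AE by the same edgeR test (all genes, 9.44% and 8.17%), with a median log2 difference of 0.00 over the list and 0.05 over all genes tested. The niche factors parted between the vessels: KITLG, the ligand of the KIT receptor on blood progenitors, was 264 and 246 CPM in AE against 72.4 and 65.1 CPM in VE (log2 difference 2.01 ± 0.37), while CSF1, the macrophage growth factor, was 2.22 and 3.20 CPM against 21.2 and 23.5 CPM (-2.93 ± 0.35). KIT itself was lower in AE, by 2.31 ± 0.39. Of the other atypical receptors, ACKR1, a marker of venules, had 0 UMIs in AE and 1.75 and 1.47 CPM in VE, and ACKR2 had 0.0472 and 0.184 CPM in AE and 0.777 and 0.979 CPM in VE. Both passed as lower in AE, on very few UMIs. The direction of all genes moved with the scaling, with 1834 higher and 1587 lower in AE here and 1293 and 1979 with the size factors of DESeq2, and none of the 23 calls on the list changed direction with it.

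Carriers of the ligand and signalling genes also differed between AE and VE. The heparan sulfate carriers HSPG2 (0.83 ± 0.25) and SDC3 (1.36 ± 0.26) and the protease gene CPM, carboxypeptidase M (1.79 ± 0.23), were higher in AE, where none of their groups was lower. Among G proteins, kinases and arrestins 4 were higher, with GRK5 and GRK6 at 0.83 each and GNAI2 at 0.66, and 4 were lower, with RGS16, a brake on G protein signalling, at -3.06 ± 0.41, ARRB1 at -0.85 and ARRB2 at -0.74. PIK3CG, a kinase downstream of chemokine receptors, was higher (1.66 ± 0.25) and DOCK2 lower (-1.89 ± 0.34). Of the other ligands, MIF (-0.45 ± 0.13) was lower, as was CXCL11, at 0.0472 and 0.43 CPM against 1.17 and 7.59 CPM, and of the regulators EPAS1 (1.23 ± 0.16) and FOXC1 (1.30 ± 0.28) were higher and EBF1 lower (-0.80 ± 0.27). Among the genes named here, the calls on ACKR2, CXCL11, EBF1, ARRB2, GRK6, HSPG2 and MIF were lost under at least 1 alternative and the others were kept under each alternative run.

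Between mesenchyme and AE, 15 of the 53 were higher in mesenchyme and 21 lower (all genes, 27.8% and 29.8%). The share of the list that was higher was thus near that of all genes. The median log2 difference was -0.12 over the list and -0.02 over all genes. With the size factors of DESeq2 the median over all genes was 0.20 and the split of all calls moved from 5399 higher and 5782 lower to 6813 and 4094, and none of the 36 calls on the list changed direction. The other ligands CXCL14 (5.47 ± 0.62) and PENK (6.09 ± 0.81) were higher with CXCL12, and ADM, a ligand that ACKR3 can also bind, was lower (-1.95 ± 0.23). Of the 5 heparan sulfate carriers 3 were higher and 1 lower, with SDC2 (4.83 ± 0.35) and SDC4 (3.94 ± 0.23) higher in mesenchyme, as was SDC1, at 4.23 and 5.15 CPM in MES LUM-high against 0.142 and 0.184 CPM in AE, and HSPG2, the perlecan gene of basement membranes, lower (-4.09 ± 0.22). The syndecan gene SDC3 did not pass (-0.08 ± 0.20). ANGPT1 (4.69 ± 0.49) and CSF1 (3.01 ± 0.31) were higher in mesenchyme, and KITLG was lower (-3.99 ± 0.32), so that CXCL12 and KITLG, both niche factors, had opposite directions in this comparison. Among proteases MMP2 was higher (1.53 ± 0.18) and CPM (-5.94 ± 0.25), DPP4, which inactivates CXCL12 (-2.37 ± 0.60), MMP9 (-1.41 ± 0.55) and MMP14 (-1.37 ± 0.25) were lower. EBF3, a regulator of CXCL12-rich stroma in bone marrow, was higher by 3.89 ± 0.55. The call on DPP4 was lost with the stricter gate and that on MMP9 with DESeq2 or its size factors and with 10% of each sum removed.

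Migration genes of leukocytes were found in HPC, where CXCR4 had 0 and 1 UMIs. RAC2, PIK3CG, DOCK2 and CORO1A, which act in the cytoskeleton and signalling of migrating blood cells, were 4 of 6 in their group that were higher in HPC than in Ery, by 1.15, 2.57, 3.13 and 4.10 on the log2 scale (edgeR adjusted p under 0.05). Against Ery, 5 of the 6 were also higher in macrophages and 4 in megakaryocytes. The HPC gate required PTPRC or SPN, and the part of that rule in the difference was not tested. CORO1A was 183 and 119 CPM in HPC against 4.79 and 6.06 CPM in Ery, and DOCK2 98.6 and 104 CPM against 3.26 and 9.99 CPM. Over the whole list 14 were higher and 5 lower in HPC (all genes, 9.48% and 15.8%), with a median log2 difference of 0.00 against -0.33 over all genes. Macrophages had 25 of the 53 higher and 8 lower than Ery (all genes, 20.3% and 25.6%), among them CD74, a receptor for MIF (a log2 difference of 6.55), MMP9 (5.95) and RGS1, which had 0 UMIs in Ery and 3.51 and 3.90 CPM in Mac, and megakaryocytes had 23 higher and 3 lower (all genes, 21.4% and 19.4%).

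In PE/ST against MES LUM-high 2 were higher and 5 lower (all genes, 4.01% and 3.59%), and with the organoid as a block the counts were 5 and 10. In CM against PE/ST 8 were higher and 18 lower (all genes, 16.5% and 15.4%). In RUNX1-positive endothelium against AE 0 were higher and 1, GRK5, was lower (all genes, 0.365% and 1.25%), and with the block the counts were 1 and 5. In cycling against non-cycling endothelium 1 was higher and 7 were lower (all genes, 5.87% and 5.69%).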

How the data were processed

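Gene counts of 2 day 14 BG-HFOs were used as deposited: per the labels and the study's methods, the authors aligned 3′ reads to GRCh38 with Cell Ranger, intronic reads included, and the deposited UMI counts precede their depth equalization, free RNA removal and cell filter. Cells with 50 to 11000 genes and under 30% mitochondrial UMIs were kept. A marker counted at 2 or more UMIs and a lineage at 2 or more such markers (3 for heart). In the stricter gate a marker counted at 4 or more UMIs, for inclusion and exclusion alike. Cells of exactly 1 lineage were gated, except HPC, which were gated among cells with no lineage call. Cells were not clustered. UMIs were summed per gate and organoid for the 19 gates with 20 or more cells in each organoid, and fitted with edgeR 4.0.16 in R (TMM, filterByExpr, gate as the only factor, quasi-likelihood test, Benjamini-Hochberg over 19435 genes). DESeq2 1.42.0 was an alternative. Depth was 500 to 126490 UMIs per barcode. Gates share an organoid, and that is the pairing: deviations of gates of one organoid from the gate means had a median correlation of 0.08 over 171 pairs. On simulated counts of AE against VE (18991 genes), the fit recovered 56% of 2-fold and 94% of 4-fold changes and called 0.0585% of unchanged genes.

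The named genes were the 3 members, the 5 genes most alike to each, and members of the axis list with an adjusted p under 0.05, up to 3 per group and direction. The members, gates and lists were chosen with earlier results of these data known. Markers of neural, pluripotent and mural cells were measured too: summed over 4 genes each, neural markers reached at most 137 CPM (MES LUM-low) and pluripotent markers 46.1 CPM (PFE), and 8 mural markers reached 1136 CPM in CM, of which ACTA2 gave 784 CPM.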

Additional observations from a re-analysis of the deposited data

How the results depend on the processing

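Of 182 alternative fits of 23 fold changes, 154 kept the direction and the side of the threshold, leaving out HPC against Ery and CXCL12 in EC RUNX1, which rest on 2 UMIs or fewer. The test on CXCR4 in HPC against Ery (edgeR adjusted p = 0.030) ranged from 0.00042 to 0.42 over its alternatives and was lost under 3 of 7. CXCR4 and ACKR3 in AE against VE and the 3 genes in mesenchyme against AE stayed called under each alternative run. In every change below the cause was not tested, values are log2 differences with the adjusted p of the fit named, and the chosen level of HPC was added after the data were seen. With no filter on low counts (edgeR), calls were gained on CXCR4 in cycling endothelium at -0.53 (0.014), ACKR3 in EC RUNX1 at -1.69 (6.0e-05), CXCR4 in PE/ST at 0.94 (0.0024), and CXCL12 and ACKR3 in CM at -0.54 (0.027) and -0.94 (0.0078). With the organoid as a replicate block (edgeR), the pairing gave calls on ACKR3 in EC RUNX1 at -1.67 (0.0086), CXCL12 in PE/ST at -0.49 (0.022), and CXCL12 and ACKR3 in CM at -0.54 (0.0033) and -0.91 (0.025), turned ACKR3 in Mac to -0.15 (0.87), and changed no other call on these 23. With the stricter gate (edgeR), CXCR4 in PE/ST was called at 1.48 (0.030), CXCR4 in Mac and Mk was not, at 0.74 (0.053) and 0.53 (0.16), CXCR4 in CM turned to 0.54 (0.25), ACKR3 in Mac to -1.37 (0.10) and CXCL12 in Mk to -0.0037 (1.0), and the levels were 57.5 CPM for CXCL12 in MES LUM-low, 361 CPM for CXCR4 in AE and 4.49 CPM for CXCR4 in HPC. Without cells above the 95th percentile of UMIs (edgeR), CXCR4 in EC RUNX1 was -1.17 (0.079), CXCR4 in Mk 0.85 (0.092) and CXCR4 in AE 358 CPM. With cells of 2000 or more UMIs and under 15% mitochondrial UMIs (edgeR), CXCR4 in EC RUNX1 was -1.13 (0.053). With 10% of each sum removed as the organoid profile (edgeR), CXCR4 in EC RUNX1 was -1.13 (0.31), CXCR4 in PE/ST 3.38 (0.047), ACKR3 in CM -1.58 (0.019), ACKR3 in Mac -3.19 (0.36), CXCR4 in Mk 1.68 (0.057) and CXCR4 in AE 380.4 CPM. CXCR4 in EC RUNX1 was -0.88 (0.28) with DESeq2 size factors in edgeR. By DESeq2 it was -0.87 (0.24), ACKR3 in PE/ST was -1.57 (0.064) and ACKR3 in Mk 0.11 (0.93). Within a single organoid, with no test, the sign turned for ACKR3 in Mac (-0.91 to 0.84) and Mk (-1.47 to 1.35), and differences ran from -1.68 to -0.73 (CXCR4, EC RUNX1), -0.77 to -0.24 (CXCL12, PE/ST), -0.86 to -0.24 (CXCR4, cycling endothelium), -1.13 to -0.56 (ACKR3, CM), 0.34 to 0.35 (CXCL12) and 4.23 to 4.26 (CXCR4) in AE against VE, 0.43 to 0.53 (CXCL12, cycling endothelium), -1.75 to -1.60 (ACKR3, EC RUNX1), 4.77 to 5.04 (CXCL12), -5.33 to -5.17 (CXCR4) and -2.73 to -2.71 (ACKR3) in mesenchyme against AE, -1.69 to -1.16 (ACKR3, PE/ST), -2.37 to -0.30 (CXCL12, Mac), 0.94 to 2.38 (CXCR4, Mac) and 0.60 to 2.01 (CXCR4, Mk). EC RUNX1 under the stricter gate and HPC without the deepest cells had too few cells to be fitted. Counts of called genes moved by over 1.5 times in EC RUNX1 against AE, from 313 to 661 with no filter, 677 with the block, 187 with 10% removed, 185 with the cell filter and 78 with DESeq2 size factors, and in PE/ST against MES LUM-high, from 1478 to 2650 with the block. Precision in HPC, EC RUNX1 and PFE is limited by the number of cells.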

Other observations

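Cells that no gate took held the 3 genes as well. Cells with no lineage call, HPC aside, were 32.9% of the cells of either organoid, at median depths of 2707 and 3698 UMIs. Their levels were 58.5 and 37.8 CPM for CXCL12, 44.8 and 53.1 CPM for CXCR4 and 16.6 and 8.09 CPM for ACKR3. Cells positive for both endothelium and stroma, 145 and 128 cells at median depths of 26126 and 27242 UMIs, had 52.8 and 30.1 CPM of CXCL12 together with 125 and 112 CPM of CXCR4. Cells positive for endothelium and megakaryocyte markers had 126 and 103 CPM of CXCR4 and 0.997 and 4.96 CPM of CXCL12. Whether such barcodes hold 1 cell or 2 was not tested.

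PFE, seen in 133 and 18 cells, had 17.7 and 24.6 CPM of CXCR4 and 13 and 0 UMIs of ACKR3. Eosinophil or basophil precursors differed between the organoids in CXCR4, with 8.31 and 24.1 CPM from 7 and 25 UMIs.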
